A study of Mus musculus with 12 samples.

Results

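The 4558 cytosines described here were the autosomal CpG cytosines whose methylation was 20% or less in the experimental iMEF line and 80% or more in the control iMEF line at day 0, among the 606488 autosomal CpG cytosines listed in all 12 RRBS libraries (0.752%). RRBS (reduced representation bisulfite sequencing) reads the CpG-rich fragments of the genome after bisulfite has converted unmethylated cytosines, and each value is the percentage of reads at a cytosine that were called methylated. The experimental line carried R26M2rtTA/+, TetOcre and Sdhc fl/fl, and the control line carried R26M2rtTA/+, TetOcre and Sdhc fl/wt. Both were immortalized mouse embryonic fibroblast lines, and both were given doxycycline, which turns on Cre recombinase and removes the floxed part of Sdhc, a membrane subunit of succinate dehydrogenase. Both floxed copies can be lost in the experimental line and 1 copy stays intact in the control line. There was 1 line per genotype and 1 library per line at day 0, before doxycycline, and at days 5, 9, 12, 16 and 20 of treatment, so genotype and line cannot be told apart. Libraries of later days stood in as replicates, and p-values therefore measure the spread between days of a single line.

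The label under which these cytosines were set apart, methylated in the control line alone, held at day 0 by construction and in few of them afterwards. At days 5 to 20 their mean methylation was 31.3% to 32.0% in the experimental line and 41.5% to 42.4% in the control line. They are therefore called the selected cytosines below. A percentage is a share of reads, so fewer methylated cells and fewer methylated copies per cell cannot be told apart.

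In mammals most CpG cytosines are methylated, whereas CpG-rich promoters and the promoters of developmental regulators are mostly free of methylation. A CpG reads the same on both strands, and maintenance methylation after replication usually leaves its pair of cytosines in the same state. Succinate, which builds up when succinate dehydrogenase is lost, inhibits the TET enzymes that oxidize methylated cytosine.

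The sequences of 3 promoters show how the selected cytosines lay among other CpGs. Each is the 250 bases before the start of the gene in RefSeq GRCm38.p6, printed along the gene's strand, with the CpGs that hold a selected cytosine in capitals. Gm3134 is a long non-coding RNA gene (chr8:89040993-89041242, plus strand) inside the gene of Sall1, a zinc finger transcription factor of kidney and limb development. Gm39222 (chr8:91797744-91797993, minus strand) lies close to the homeobox gene Irx3, and Aldh1a2 (chr9:71215539-71215788, plus strand) encodes a retinaldehyde dehydrogenase that makes retinoic acid.
Gm3134: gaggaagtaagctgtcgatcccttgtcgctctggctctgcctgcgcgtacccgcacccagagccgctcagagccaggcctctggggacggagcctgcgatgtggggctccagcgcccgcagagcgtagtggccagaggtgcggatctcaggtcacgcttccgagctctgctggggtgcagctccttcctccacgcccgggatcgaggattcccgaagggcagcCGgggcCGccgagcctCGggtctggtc
Gm39222: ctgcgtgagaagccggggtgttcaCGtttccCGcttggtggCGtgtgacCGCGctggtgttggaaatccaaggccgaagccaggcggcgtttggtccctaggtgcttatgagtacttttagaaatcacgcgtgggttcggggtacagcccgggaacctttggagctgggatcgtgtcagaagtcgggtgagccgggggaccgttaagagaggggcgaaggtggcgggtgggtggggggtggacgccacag
Aldh1a2: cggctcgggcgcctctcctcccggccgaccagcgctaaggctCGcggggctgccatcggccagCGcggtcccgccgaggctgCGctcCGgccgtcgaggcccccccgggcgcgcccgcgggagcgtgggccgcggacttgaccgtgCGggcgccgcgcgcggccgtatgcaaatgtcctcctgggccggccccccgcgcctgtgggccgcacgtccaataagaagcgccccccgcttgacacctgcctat

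In the Gm3134 sequence 3 of 4 listed cytosines were selected, and their mean at days 5 to 20 was 4.44% in the experimental and 60.6% in the control line. The listed cytosine between them, 18 bases before the start, was at 0% in the control line at day 0 and therefore was not selected. It then read 66.7%, 88.9%, 100%, 50% and 66.7% in the control line at days 5, 9, 12, 16 and 20, against 0% in all 6 experimental libraries. In the Gm39222 sequence 5 of 11 listed cytosines were selected, each at 87.5% in the control line at day 0. Their later means were 23.9% in the experimental and 14.1% in the control line, and the experimental mean was 13.9% without day 20. The Aldh1a2 sequence held 44 listed cytosines, of which 5 were selected at 100% in the control line at day 0, and their later means were 17.8% and 26.2%. On average the day 0 difference thus persisted in the first of these promoters, was smaller in Aldh1a2 and was not seen in Gm39222. Of the selected Gm3134 cytosines, only that at chr8:89041222 kept the lines apart on every later day. At chr8:89041216 the control line read 0% at day 12. The cytosine at chr8:89041232 read 50%, 0%, 0%, 50% and 45.8% in the control line at days 5 to 20. It read 0%, 0%, 0%, 20% and 46.7% in the experimental line.

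Across all selected cytosines the mean went from 7.56% at day 0 to 31.8%, 31.3%, 31.9%, 31.8% and 32.0% at days 5, 9, 12, 16 and 20 in the experimental line. In the control line it went from 96.2% to 42.4%, 42.3%, 42.2%, 42.1% and 41.5%. Both lines thus left their day 0 level by day 5, and neither moved by more than 1 percentage point after that. The mean over all 606488 cytosines lay between 42.7% and 44.7% in every library. The gap between the lines was 10.3 percentage points on average over days 5 to 20 (median 6.25, quartiles -3.82 and 25.3), and its median over all listed cytosines was 0.

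**Figure D1:**
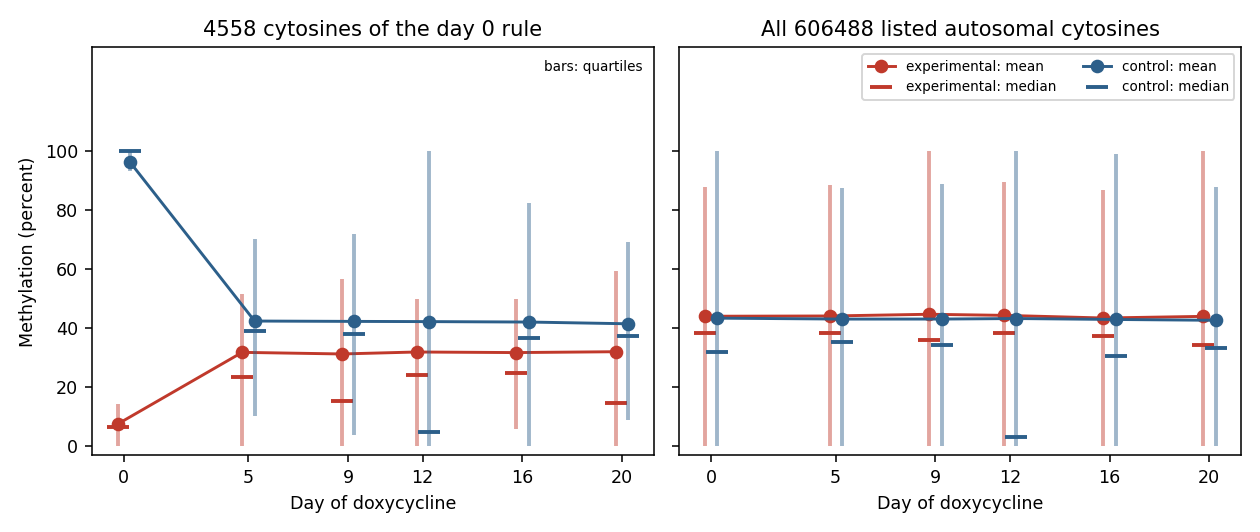
Methylation (percent, vertical axis) against the day of doxycycline (horizontal axis) for the selected cytosines and for all listed autosomal cytosines, with points for the mean of a library, dashes for its median and bars for its quartiles. From day 5 on the means of the selected cytosines lie between 31.3% and 42.4%, and the control day 12 library has the lowest median, 4.76%.

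Within a single line, the starting state was kept less often than at all cytosines that started at the same level. The comparison set was not required to differ from the other line at day 0, so the selection partly set this contrast. Of the selected cytosines, 44.8% to 53.4% were still at 20% or less in the experimental line on a later day, against 91.5% to 92.4% of all cytosines that started at that level in this line. In the control line 18.4% to 36.3% were still at 80% or more, against 73.6% to 80.1%. At each of the 5 later days the experimental state held at 834 cytosines (18.3%, against 79.5%) and the control state at 178 (3.91%, against 42.2%). The control line never again reached 80% at 2090 of the selected cytosines (45.9%), and the experimental line never again fell to 20% at 864 (19%).

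Both criteria were met on the same later day by 181, 301, 466, 255 and 230 cytosines at days 5, 9, 12, 16 and 20, which is 3.97% to 10.2% of the selected cytosines. Of all 606488 listed cytosines, 2064, 6462, 10033, 3908 and 6151 met them on these days. None of the later days met them at 3464 cytosines (76.0%), 844 met them on 1 day and 182 on 2 days. They were met on every later day at 4 selected cytosines (0.0878%), against 5 of all listed cytosines (0.000824%). All 4 lay in the promoter of Gm51701. A looser pattern, under 50% in the experimental and over 50% in the control line on every later day, was kept by 80 selected cytosines (1.76%) and by 662 of all listed cytosines (0.109%). The opposite set, high in the experimental and low in the control line at day 0, held 6835 cytosines, of which 4 met their criteria on every later day.

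A shared state on all later days was rarer than among all listed cytosines. The rule left out cytosines with a shared state at day 0, so the selection partly set this contrast. Both lines were at 20% or less on every later day at 389 selected cytosines (8.53%, against 32.2% of all) and at 80% or more at 39 (0.856%, against 8.73%). At 106 cytosines (2.33%, against 17.2%) all 10 later libraries read exactly 0%. The mean of the 10 later libraries was between 20% and 80% at 2859 cytosines (62.7%), against 26.4% of all listed cytosines. The control line was on average higher at 2908 (63.8%, against 37.5% of all). Equal means counted as not higher, so the cytosines at 0% in all 10 later libraries (2.33%, against 17.2%) lower both shares unequally. The control line was higher by at least 20 percentage points at 1424 (31.2%, against 6.08%) and by at least 50 at 288 (6.32%, against 0.365%). At 361 cytosines (7.92%, against 8.65%) the order was turned around by at least 20 percentage points.

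The other cytosine of the same CpG, which the selection did not use, was listed for 465 of the selected cytosines. These 465 had means of 7.28% in the experimental and 96.3% in the control line at day 0. The opposite strand at the same CpGs stood at 29.3% in the experimental and 37.4% in the control line at day 0. That is within 2 percentage points of its later levels, 28.1% to 30.5% and 36.3% to 37.3%. At day 0 the opposite strand was under 80% in the control line at 377 CpGs (81.1%) and was itself at 20% or less at 209 (44.9%). It was higher in the control than in the experimental line at 213 (45.8%). At only 12 CpGs were both cytosines selected.

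**Figure D2:**
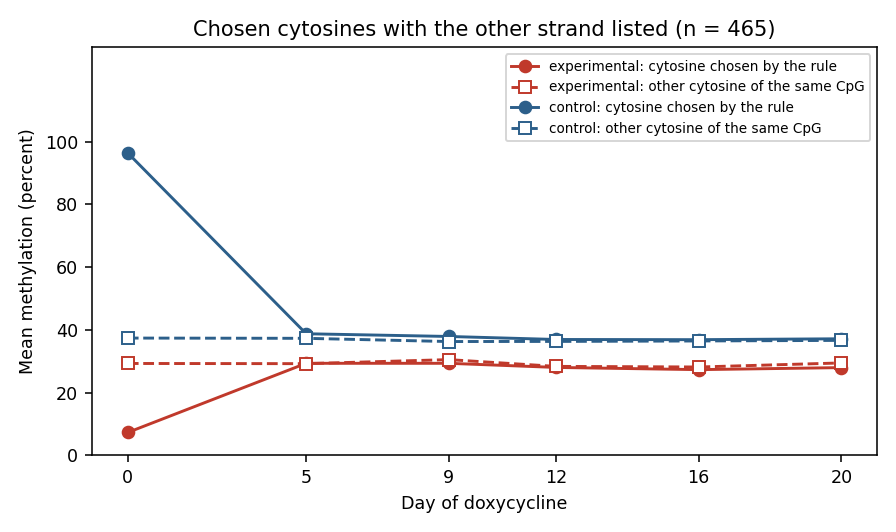
Mean methylation (percent, vertical axis) by day of doxycycline (horizontal axis) at the 465 CpGs with both cytosines listed, for the selected cytosine and for the other strand, in the experimental and control lines. The selected strand starts at 7.28% and 96.3% and moves to the level of the other strand, which stays at 28.1% to 30.5% and 36.3% to 37.4%.

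Neighbouring cytosines gave a similar picture. Non-selected cytosines within 200 bp, present for 4064 of the selected cytosines, averaged 36.0% to 36.9% in the experimental and 39.8% to 41.0% in the control line over all days, day 0 included. Neighbours were then taken as all listed cytosines within 200 bp, selected ones included and the other cytosine of the same CpG left out. Selected cytosines with at least 3 were classed by the control minus experimental mean of these neighbours at day 0. It was under 20 percentage points around 2138, 20 to 50 around 648 and 50 or more around 173. Selected neighbours hold a day 0 gap by the rule, so the selection partly set these classes. The later gap at the selected cytosine itself was larger along this order, with medians of 2.27, 14.1 and 33.1 percentage points. The looser pattern was kept by 15, 26 and 17 cytosines of these classes (0.702%, 4.01% and 9.83%). Selected cytosines with fewer than 3 neighbours numbered 1599 and had a median later gap of 10.4 percentage points.

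The selection favoured extreme values by its nature. In the control line at day 0, 72.4% of the selected cytosines were at exactly 100%, against 25.3% of all listed cytosines, and 42.2% were at exactly 0% in the experimental line, against 33.0%. The 1546 cytosines just inside the limits (15% to 20% or 80% to 85%) later averaged 34.5% and 45.7%. The 2061 just outside (up to 25% and from 75%) later averaged 38.3% and 48.9%. The 1496 cytosines at 0% and 100% later averaged 31.4% and 38.4%. The number of reads behind a value was not used here because the values carry none, and the part of depth in these changes was not tested. The same limits applied to libraries of the same later day picked 2064 to 10033 cytosines, and 3940 to 19210 cytosines went from 80% or more at day 0 to 20% or less on a later day within the control line itself.

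The lines were compared at each cytosine over days 5 to 20 with limma on M-values (the log2 ratio of methylated to unmethylated share, offset 0.01), fitted on all 497697 cytosines that varied, with the 5 libraries of each line as replicates and without either day 0 library. Of the 4436 selected cytosines that could be tested, 60 (1.35%) were lower in the experimental line at an adjusted p under 0.05 (Benjamini-Hochberg), against 0.193% of all cytosines tested. In the opposite direction 8 were called (0.180%, against 0.246%). Unadjusted p-values under 0.05 were found for 796 lower (17.9%, against 5.26%) and 154 higher (3.47%, against 6.71%). All 5 control libraries were above all 5 experimental libraries at 271 selected cytosines (5.95%, against 1.03%). A test of whether the change with day differed between the lines called 0 selected cytosines, as it called 0% of all 497697 tested (limma, 192 or 4.33% at an unadjusted p under 0.05, against 3.44%), so it does not tell whether such differences exist. The count of 60 was 30 without the control day 16 library and 31 without the experimental day 12 library. With the treatment day as a block it was 0, with 830 lower at an unadjusted p under 0.05.

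Gm51701, a long non-coding RNA gene, held the 4 cytosines that met both criteria throughout. Its cluster of 9 selected cytosines at chr9:123924637-123924734, 37392 bp from the nearest protein-coding gene, Ccr1, lay in its promoter at positions -511 to -414 from its start. The mean over its 10 listed cytosines was 6.80%, 12.0%, 3.07%, 2.09% and 5.31% in the experimental line at days 5, 9, 12, 16 and 20. In the control line it was 90.2%, 87.3%, 86.2%, 93.5% and 92.2%. The lines did not overlap in any library, and all 9 selected cytosines were called lower in the experimental line. The 4 that met both criteria on every later day were at 123924652, 123924660, 123924721 and 123924734 (limma adjusted p 0.00758, 0.00303, 0.0108 and 0.00552). At 123924660 the experimental line read 3.13% at day 0 and 0% on every later day, and the control line 90.3%, 89.8%, 89.5%, 81.2%, 97.7% and 89.8% from day 0 to day 20.

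The rest of this promoter showed the same order. The 8 further listed cytosines at positions 339 to 399, none of which had been selected, averaged 0% to 2.13% in the experimental and 52.8% to 72.7% in the control line over days 5 to 20. Over all 18 listed cytosines the promoter stood at 3.52% ± 2.14 in the experimental and 75.6% ± 2.33 in the control line (SD, n = 5 libraries each). The difference in M-value was -6.15 (SE 0.31, limma adjusted p 2.18e-05). The call of this promoter mean held in each of the 16 alternative fits, with limma adjusted p from 2.97e-08 to 0.0160. The 1000 bp window from chr9:123924001 and the 4 cytosines that met both criteria missed the threshold in at least 1 alternative fit. Their highest limma adjusted p was 0.0720 for the window and 0.126 for each of the 4. Among these fits, 1 includes the control day 0 library, whose values chose the cytosines. A C-to-T difference in sequence between the lines also reads as unmethylated, and this was not tested at any site.

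**Figure D3:**
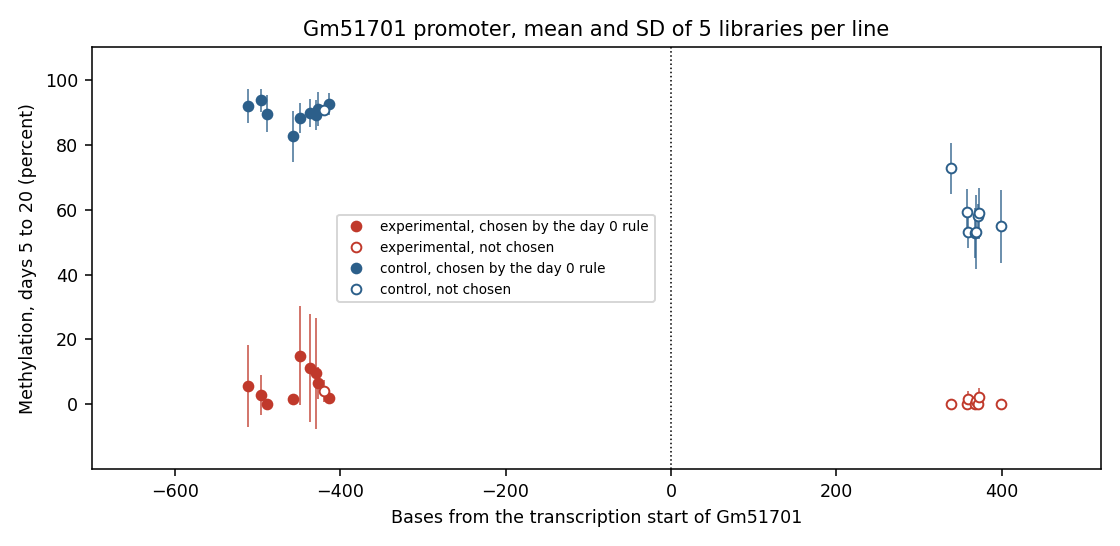
Methylation (percent, vertical axis) of the 18 listed cytosines of the Gm51701 promoter against their distance in bases from the gene's start (horizontal axis), as means of days 5 to 20 with bars for the SD over 5 libraries per line and separate marks for selected and other cytosines. The experimental line lies between 0% and 15% and the control line between 52.8% and 93.7%.

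Most selected cytosines stood alone. With at most 500 bp between neighbours, 3003 were single, 435 pairs formed, and 685 (15%) fell into 176 clusters of 3 or more, with a median length of 46 bp (5 to 870). In 32 clusters every listed cytosine was selected. Promoters were touched by 67 clusters, 95 lay in genes outside promoters and 14 outside genes. Averaged over all listed cytosines between its ends, a cluster differed by a median of 59.5 percentage points at day 0 and of 6.26 over days 5 to 20. The later gap was 50 or more in 6 clusters, 20 to 50 in 38, 0 to 20 in 78 and below 0 in 54. All control libraries lay above all experimental libraries in 36 of the 176. Among 1000 bp windows, the nearest unit with a background, this order was seen in 38 of the 163 with at least 3 selected cytosines (23.3%) and in 2.19% of all 69572 windows. Among promoters it was seen in 14 of the 76 with at least 3 selected cytosines (18.4%) and in 1.5% of all 12983. Cytosines of a cluster can lie on the same reads and are not independent.

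The cluster with most members, 21 of 34 listed cytosines at chr7:137309242-137309790, lay in the body of Ebf3, a transcription factor of the early B-cell factor family. Its mean was 4.79%, 7.52%, 19.5%, 10.6% and 28.2% in the experimental line at days 5, 9, 12, 16 and 20, and 68.2%, 62.6%, 48.7%, 60.1% and 62.8% in the control line. The lines did not overlap, and the experimental value was highest at day 20. The 1000 bp window that holds the cluster, 37 listed cytosines, differed by -3.38 in M-value (SE 0.53, limma adjusted p 0.0197, and 0.120 at the highest among the alternative fits).

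Sult2b1, a sulfotransferase of cholesterol and other steroids, held the next largest cluster, with 11 of 12 listed cytosines at chr7:45759443-45759702 in its promoter. The experimental line read 6.38%, 13.2%, 15.8%, 11.4% and 5.30% and the control line 49.2%, 60.7%, 36.1%, 61.2% and 32.7% at days 5 to 20. The control line kept part of its day 0 level of 88.8% and stayed above the experimental line in every library. Of these cytosines, 2 at 45759501 and 45759510 were called lower (limma adjusted p 0.0287 and 0.0323), and both were at 0% in all 5 later experimental libraries.

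In the 24 listed cytosines at chr2:164168179-164168765, shared by Kcns1, a modulatory potassium channel subunit, and the promoter of LOC115486434, 7 were selected. The cluster read 22.7% to 44.9% in the experimental and 61.3% to 86.7% in the control line on the later days. The cluster at chr8:121089366-121089725, with 7 of 15 selected, lay 1212 bp from Foxf1, a forkhead factor of visceral mesenchyme. It read 8.11% to 26.0% and 36.6% to 69.1%, again with no overlap. Windows of 1000 bp with these clusters were called lower in the experimental line (limma adjusted p 0.0293 and 0.0246, and 0.122 and 0.115 at the highest among the alternative fits).

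Other large clusters lost the difference. In the body of Sav1, a scaffold of the Hippo kinases, the cluster at chr12:69986805-69986842 held 7 selected of 8 listed cytosines and fell from 70% at day 0 to 0.714% at day 5 and 0% afterwards in the control line. The experimental line was at 0.938% or less throughout. At Sypl2, a synaptophysin-like membrane protein of muscle, the cluster at chr3:108226535-108226588 fell from 63.6% to 9.66%, 1.95%, 0%, 5.45% and 11% in the control line. Its experimental values were 6.28% to 10.4% on the same days. Nkx2-6, a homeobox gene of the pharynx and heart, fell from 70% to 0.25% to 23.8% in the control line at chr14:69174641-69174690 and overlapped with 5.27% to 26.4% in the experimental line. Adra2a, the alpha-2A adrenergic receptor, read 17.8% to 34.4% and 17.1% to 24.4% at chr19:54047023-54047381. Klhl35, a kelch-like gene, swung between 20% and 90% in the experimental line and between 20% and 100% in the control line at chr7:99468305-99468354. In each of these 5 clusters the lines overlapped on the later days.

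**Figure D4:**
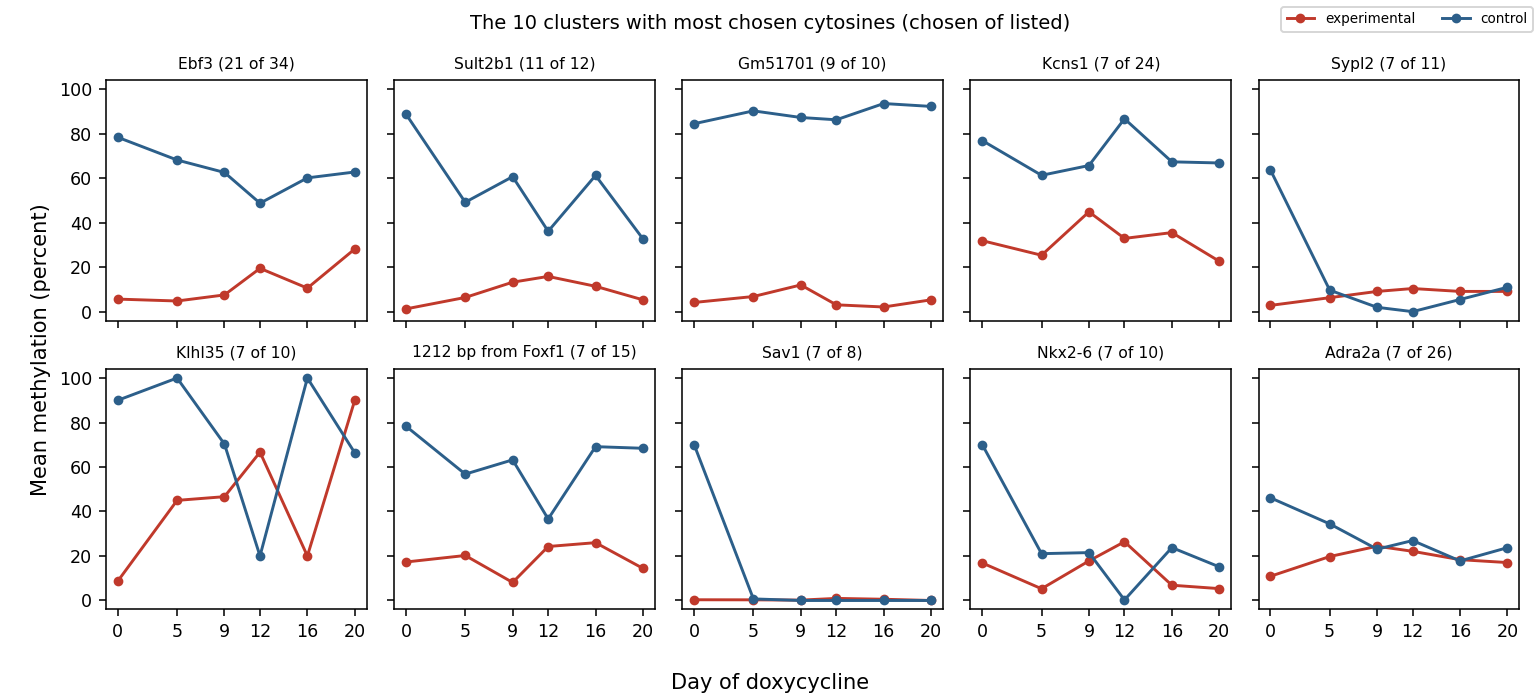
Mean methylation (percent, vertical axis) over all listed cytosines of the 10 clusters with most selected cytosines, by day of doxycycline (horizontal axis), 1 library per point and 1 panel per cluster named by its gene. In 5 panels (Ebf3, Sult2b1, Gm51701, Kcns1 and the cluster 1212 bp from Foxf1) the lines stay apart from day 5 on, and in the other 5 they meet or cross.

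Beside Gm51701, later gaps of 50 percentage points or more were found in 5 clusters, chosen here for that value. Ptprr, a receptor tyrosine phosphatase that acts on MAP kinases, held 4 selected cytosines at chr10:116266786-116266829 and no other listed one there. They averaged 32.1%, 6.25%, 8.33%, 0% and 0% in the experimental and 100%, 85.3%, 100%, 80.8% and 79.2% in the control line. Of the 4, 3 passed the test (limma adjusted p 0.00708, 0.0471 and 0.0176) and the cytosine at 116266817 did not (0.0643). The cluster of Sall1 and Gm3134 at chr8:89041216-89041509 read 4.42% to 23.7% against 44.4% to 74.3%. Of the 9 selected cytosines of Sall1, that at 89041222 was called (limma adjusted p 0.00708), with 0% on all later days against 78.1% to 100%. The other 3 clusters lay 600 bp from Nkx6-1 (10.6% against 65.6% on average), in Tbx3os1, antisense to the limb regulator Tbx3 (22.8% against 76.7%), and in Hoxb5 and its antisense gene Hoxb5os (12.7% against 62.8%).

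**Figure D5:**
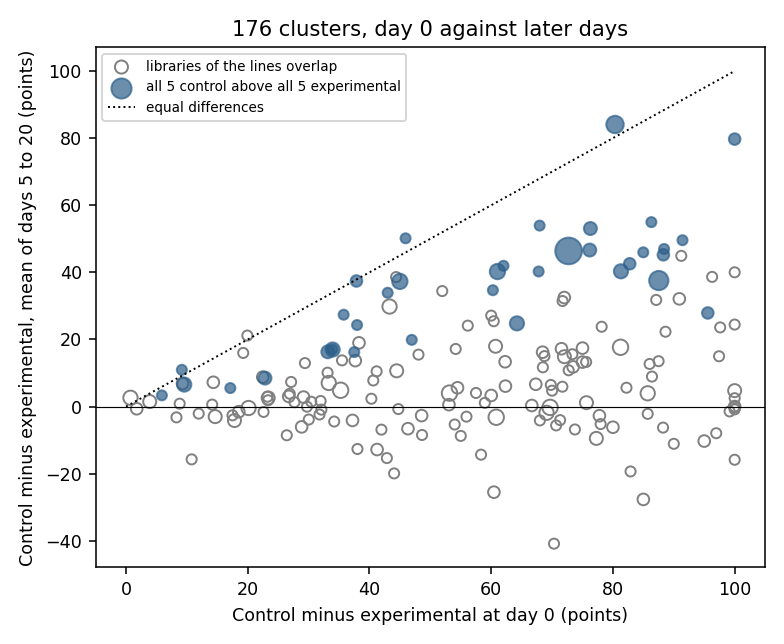
Control minus experimental methylation (percentage points) of each of the 176 clusters at day 0 (horizontal axis) and as the mean of days 5 to 20 (vertical axis), over all listed cytosines of a cluster. Later gaps run from -40.9 to 84.1 around a median of 6.26, against 59.5 at day 0, and Gm51701 and Ptprr stand highest.

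Fixed windows and promoters, which take in all listed cytosines and not those selected alone, were tested in the same way. Of 163 windows of 1000 bp with at least 3 selected cytosines, 23 were called lower in the experimental line and 0 higher (limma, 60 and 6 at an unadjusted p under 0.05). Of all 69572 windows 0.546% were called lower and 1.12% higher (6.31% and 10.6% unadjusted). Of 76 such promoters (1500 bp before to 500 bp after the start), 9 were called lower and 0 higher (limma, 27 and 5 unadjusted), against 0.647% and 1.46% of all 12983 (4.44% and 12.7% unadjusted). With the treatment day as a block 0 windows and 1 promoter, Gm51701, were called. The control mean was the higher in 116 windows (71.2%) and 55 promoters (72.4%), and this share was not computed over all windows and promoters. The median later difference was 4.36 percentage points in the windows and 2.94 in the promoters, after 24.4 and 13.6 at day 0. Without the experimental day 12 library 4 windows and 4 promoters were called, and without the control day 9 library 4 and 5.

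The promoters called lower after Gm51701 were led by Gm3134 (15.4% ± 6.37 against 54.9% ± 5.68, SD, n = 5 each), with an M-value difference of -2.74 (SE 0.32, limma adjusted p 0.00492). LOC115486434 stood at 35.6% against 70.7% (limma adjusted p 0.0121). Hoxb3os, an antisense RNA gene of the Hoxb cluster, stood at 12.0% against 40.9% (0.0157), and 2 of its selected cytosines were called on their own. Sult2b1 stood at 11.5% ± 6.89 against 38.0% ± 8.09 (0.0294). Smaller differences passed for Smagp, a small adhesion glycoprotein (5.14% against 14.7%, 0.0254), and Abcb9, a lysosomal peptide transporter (10.2% against 28.2%, 0.0446). They also passed for Tagln, an actin-binding protein of smooth muscle and fibroblasts (2.10% against 10.1%, 0.0476), and Cmya5, a striated muscle protein (7.34% against 23.8%, 0.0483). Each of the 8 promoters named after Gm51701 missed the threshold in at least 1 alternative fit, with a highest adjusted p of 0.0569 (Gm3134) to 0.150 (Tagln) across the fits. In Tagln the 3 selected cytosines themselves averaged 1.89% and 7.24%, with the control line at 0% in 3 of 5 later libraries.

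Other promoters rich in selected cytosines were not called. Foxl2, a forkhead factor of the ovary, and Foxl2os share 6, which later averaged 8.86% and 33.1%, while the whole Foxl2 promoter averaged 6.85% and 9.45%. The 6 of Zfp423, a zinc finger factor of fat and neural progenitors, averaged 28.5% and 56.6%, and those of Gm10254 (5) 31.3% and 76.9%. Spint2, an inhibitor of serine proteases, held 6 at 8.75% and 8.63%, and Gjb2, the connexin 26 gene, held 5 at 11.6% and 28.9%. Aldh1a2 and Gm3458 share 6 at 20.6% and 29.0%, and Gm39222 held 6 at 32.3% and 27.5%. The 5 in the Ebf3 promoter, away from its cluster in the gene body, later averaged 19.9% and 23.8%. The control line had read 85.3% to 100% at the selected cytosines of all these promoters at day 0.

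Hox genes, which set position along the body axis, were a rich source of selected cytosines, with 56 of 1336 listed cytosines (4.19%, against 0.752% overall) in 14 of 38 genes. Their median later gap was 19.5 percentage points, against 6.25 over all selected cytosines. None was called by limma over all sites, 20 of 56 (35.7%) were lower and 0 higher at an unadjusted p under 0.05, against 17.9% and 3.47% of all selected cytosines tested, and 2 kept the looser pattern. The 11 of Hoxb3 read 15.7%, 16.1%, 12.5%, 14.5% and 14.4% in the experimental and 47.0%, 31.7%, 61.0%, 44.8% and 52.6% in the control line at days 5 to 20, with no overlap. The 6 of Hoxc9 averaged 27.4% and 54.8% on these days. The 7 of Hoxa10 averaged 3.79% and 14.2% after 100% in the control line at day 0, and the 6 of Hoxd10 6.84% and 11.8% after 100%.

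Other developmental transcription factors (Tbx, Pax, Sox, Gata, Fox, Nkx and related families) held 146 selected of 8408 listed cytosines (1.74%) in 59 of 148 genes. Of the 145 tested, 3 were called lower (2.07%, against 1.35% of all selected cytosines tested) and 0 higher. At an unadjusted p under 0.05 (limma) 35 were lower (24.1%, against 17.9%) and 8 higher (5.52%, against 3.47%), with a median later gap of 9.56 percentage points. Gata6, a zinc finger factor of endoderm and heart, held 9, which read 4.12% to 14.9% in the experimental and 23.5% to 52.1% in the control line on the later days. The 9 of Sall1 averaged 12.4% and 43.4%. Pax7, a regulator of muscle progenitors, held 6 that averaged 20.2% and 17.8%.

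The remaining gene lists held fewer. Wnt pathway genes held 15 of 1911 listed cytosines (0.785%). Of the 14 tested, 2 were called lower (14.3%, against 1.35% of all selected cytosines tested and 0.193% of all cytosines tested). Both were in Sfrp2, a secreted Wnt antagonist, with 0% to 3.70% against 41.7% to 100% on the later days. The 4 of Fzd5, a Wnt receptor, averaged 37.9% and 48.8%. Zinc finger protein genes held 37 of 7796 (0.475%), among them 4 in Zfp518b and 3 in Zfp277 that averaged 5.00% or less in both lines. Of the 36 tested, 1 was called lower, in Zfp148 (2.78%). The 5 of Gnas, an imprinted gene for a G protein subunit, read 33.3% to 100% in the experimental line and either 0% or 100% in the control line. Genes of DNA methylation held 4, of which 3 were in Tet1, an enzyme that oxidizes methylated cytosine (39.0% and 55.8%). The fourth, at chr12:3867011 in the de novo methyltransferase gene Dnmt3a, was called (1 of 4 tested, 25%), with 66.7%, 2.56%, 0%, 0% and 0% against 72.0% to 100% (limma adjusted p 0.0470). Succinate dehydrogenase and TCA cycle genes held 2 of 732 (0.273%). Genes of the fibroblast matrix and mesenchyme held 5 of 526 (0.951%), epithelial genes 9 of 595 (1.51%), imprinted genes 11 of 657 (1.67%), protocadherins 8 of 838 (0.955%) and germline genes 1 of 103 (0.971%), against 0.752% overall. Of these, 1 was called lower, in the epithelial gene Cdh3 (1 of 9 tested, 11.1%). Cell cycle brakes held 0 of 310.

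Smarca5, the ATPase of the ISWI chromatin remodelers, had a single selected cytosine, in its promoter at chr8:80739150. It was at 0% in all 6 experimental libraries. The control line read 100% at day 0 and 62.5%, 61.7%, 98.1%, 57.8% and 59.1% later, all above the experimental line (M-value difference -8.15, SE 0.98, limma adjusted p 0.0105).

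A few selected cytosines changed sides, at a share no larger than that of all cytosines. Of the 4436 tested, 8 were called higher in the experimental line (0.180%, against 0.246% of all cytosines tested). The 5 with the most negative later gap averaged 80.3% to 97.8% in the experimental and 11.4% to 19% in the control line. They were picked by the same later values that their p-values test. That at chr5:106003521 read 0% and 100% at day 0, then 100%, 100%, 88.9%, 66.7% and 100% in the experimental line and 57.1%, 0%, 0%, 0% and 0% in the control line (limma adjusted p 0.0301). Those at chr5:18657306 and chr1:190548516 were also called higher in the experimental line (0.0246 and 0.0499), whereas those in Slc22a18, an organic cation transporter gene, and Gm7389 were not (0.0507 and 0.129). The other 5 of the 8 called higher were named after their values were seen. They lay in the promoters of Mesp1, a factor of early cardiac mesoderm (61.5% against 0%), and Mlxipl (25.5% against 0.244%), in Nedd1 and Rasgrp2, and at chr8:84984821.

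By position, 23.4% of the selected cytosines lay in promoters (30.4% of all listed), 53.2% in gene bodies outside promoters (49.7%) and 23.4% in neither (19.9%). They fell in 2671 of the 25413 genes with a listed cytosine, of which 2061 were protein-coding, and 310 genes held at least 3. The selected share ran from 0.526% to 1.18% of listed cytosines by chromosome and was highest on chromosome 7. The number of listed cytosines within 200 bp had a median of 5, as for all listed cytosines. Within the RefSeq promoter sequences, 76 of 296 selected cytosines (25.7%) lay in a CCGG, on either strand, against 21.4% of 60266 listed ones, and 53.5% of all promoter sequences hold that motif. The forward strand carried 49.3% of them (49.4% of listed).

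The libraries listed 932307 to 1716381 cytosines, and the control day 12 library, the smallest, also had the lowest correlation with its own line (r 0.712 to 0.763 over sites, against up to 0.899 elsewhere). Its share of selected cytosines at exactly 0% or 100% was 48.1% and 31.3%. Of promoters of fibroblast genes, Fn1 and Vim were at 1.13% or less and Col1a2 at 80.7% to 95.7% in all libraries. Twist1 read 9.89% to 14.0%, Twist2 18.0% to 34.6% and Pdgfrb 0% to 5.41%. Prrx1, with 8 listed cytosines of which 1 was selected, read 0% to 91.5% over all libraries and averaged 19% in the experimental and 66.9% in the control line on the later days. Of epithelial genes, Cdh1 was at 23.5% to 41.7%, Krt18 at 26.9% to 54.4%, Grhl2 at 6.58% to 25.4%, Esrp1 at 5.34% to 13.2% and Ovol1 at 4.66% to 15.8%. No RNA was measured here, and methylation does not show the Sdhc deletion, so the labels were not checked against it.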

How the data were processed

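The authors aligned the paired-end RRBS reads to mm10 with Bismark. Their deposited values are the percent of methylated calls among the reads over each CpG cytosine. The Bismark version and the restriction enzyme are not given in the sources used here. These percent values carry no read counts, so depth is unknown and no interval was computed, and the filters that the authors applied in RnBeads came later and are not in them. Libraries were grouped by line as labelled, and sex chromosomes were left out. Beta values (percent divided by 100) became M-values with an offset of 0.01. The 5 libraries of days 5 to 20 of each line were compared with limma 3.58.1 in R 4.3.3, for cytosines, promoters and 1000 bp windows with at least 3 listed cytosines, adjusted by Benjamini-Hochberg (threshold 0.05), after tests on simulated data. The study also put control day 0 in its control group; here it chose the cytosines and was left out. Other steps used Python 3.11.15, numpy 2.4.6, pandas 2.3.3 and matplotlib 3.10.9.

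Genes, promoter sequences and strands came from RefSeq GRCm38.p6, with 7795 strands taken by symbol from an earlier GENCODE annotation. Of 15528 genes with a strand in both, 15486 had the same one. Genes named are those of the 10 clusters and 15 promoters with most selected cytosines, the 5 most negative later differences, up to 4 genes of each of 12 lists with at least 3 selected cytosines, and Sall1, Ptprr and Smarca5; other items were chosen after their values were seen. The selected cytosines and the lists were chosen with earlier results of these data known. Alternatives were other offsets, beta values, limits, filters, cluster gaps, window sizes, a day block and each library left out.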

Additional observations from a re-analysis of the deposited data

Results flagged for a closer look

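Of 58 sets of 5 later libraries of a line that were examined, 4 held a library whose distance from the nearest other exceeded Dixon's limit (0.71 of the range for 5 values), and chance does so for about 1 in 20. The median of the selected cytosines was 4.76% in the control day 12 library, against 36.8% to 39.1% in the other later control libraries, while its mean of 42.2% was close to theirs. The 5 selected cytosines of the Ebf3 promoter averaged 48.3% in the experimental day 20 library, against 7.83% to 19.5% on the other later days. The cluster of Kcns1 and LOC115486434 read 86.7% in the control day 12 library, against 61.3% to 67.3%. The Sav1 cluster read 0.714% in the control day 5 library, against 0% on all other later days. None of these was examined further.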

How the results depend on the processing

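The 60 selected cytosines called lower became 30 with an offset of 0.001, 113 with 0.05, 154 on beta values, 97 with control day 0 included (the library whose values chose them, so that this fit is not independent of the selection), 37 without the filter on constant cytosines and 0 with the replicate block (the day). The 8 called higher became 5, 1, 5 and 0 with the offset of 0.001, control day 0, no filter and the block. The 9 promoters called lower became 4 with the offset of 0.001 and 1, Gm51701, with the block. The 23 windows became 3 and 36 with the offsets of 0.001 and 0.05 and 0 with the block, and 1 window instead of 0 was called higher with 0.05 and with beta values. Leaving out 1 library gave 30 to 74 and 0 to 6 cytosines, 4 to 10 promoters and 4 to 21 windows. The cytosines called lower fell most without experimental days 5, 12, 16 and 20 (36, 31, 38 and 37) and control day 16 (30). The promoters fell most without experimental days 5, 12 and 16 (5, 4 and 4) and control days 9 and 16 (5 and 5). Leaving out any library but control day 12 cut the windows by more than 1.5 times. Same-day libraries of the lines deviated together with r of 0.000711 to 0.00295 over sites. Whether some sites share an effect of the day was not tested. At an unadjusted p under 0.05 (limma) the block gave 830 selected cytosines lower and 182 higher, against 796 and 154 in the main fit.

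The 4 cytosines that met both criteria throughout became 0 of 2212 with limits of 10% and 90%, 16 of 9018 with 30% and 70%, and 12 of the 4558 where the wider limits applied to later days alone. Without 1 day they were 5 to 9 (9 without day 9, 7 without days 5 or 16). The 80 of the looser pattern became 31 and 171 with these limits and 108 to 128 without 1 day (126, 128 and 123 without days 12, 16 and 20). The direction of all 9 promoters, 23 windows and 68 cytosines called in either direction was the same in every fit. They stayed past the threshold in 92 of 144, 169 of 367 and 621 of 1088 refits (the fits with control day 0 are among them), and Gm51701 was the only promoter to do so throughout. Without read counts a value of 0% or 100% from few reads cannot be told from one from many.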
